A study of Homo sapiens with 24 samples.

Results

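KRTAP19-1 and KRTAP19-6 encode keratin-associated proteins, and the array carries 1 probe for each. Their 2 probes were taken from a table of 47323 probes by gene symbol, and the array holds 99 probes for 81 genes of the wider keratin-associated protein (KRTAP) family. The genes were chosen because their changes in these same arrays were among the largest, so the differences that chose them are described below without a test. HEK293, a human embryonic kidney cell line, was given either water or MOTS-c at 10 µM, a peptide of 16 residues encoded in the mitochondrial 12S ribosomal RNA gene. All cells grew in phenol-free DMEM with serum. Exposure lasted 4 h or 72 h, which gives 4 groups of 6 bead arrays, 1 array per sample. The sources used here do not say whether the arrays of a group came from separate cultures, so their spread may be technical. Deposited intensities are mean bead brightness before any scaling. Normalized levels are log2 values after background correction and quantile normalization, and a probe is called detected on an array where its detection p, a comparison with the negative controls of that array, is under 0.05.

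Keratin-associated proteins fill the space between the keratin filaments of the hair shaft, where they cross-link the filaments into a rigid matrix. The KRTAP19 proteins are short and rich in glycine and tyrosine, and are known from the hair follicle. Their genes have a single exon and lie side by side with other KRTAP families in a cluster on the long arm of chromosome 21. Copies within the family resemble each other, and probe sequences were not used here, and which copy each probe reports is uncertain.

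The start regions of the genes show how far their flanking DNA differs. Each run below is RefSeq sequence of build GRCh38.p14, 5′ to 3′ on the minus strand, from 250 bases before the annotated start to 50 bases after it, and capitals mark the motif TATAAA. The KRTAP19-1 window is chr21:30480318-30480617 and the KRTAP19-6 window is chr21:30541815-30542114.
KRTAP19-1: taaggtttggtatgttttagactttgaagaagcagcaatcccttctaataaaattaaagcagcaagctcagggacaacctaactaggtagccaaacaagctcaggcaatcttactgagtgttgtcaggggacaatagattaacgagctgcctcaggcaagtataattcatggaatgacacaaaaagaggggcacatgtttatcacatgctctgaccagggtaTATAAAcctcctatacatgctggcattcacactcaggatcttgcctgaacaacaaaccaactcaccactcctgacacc
KRTAP19-6: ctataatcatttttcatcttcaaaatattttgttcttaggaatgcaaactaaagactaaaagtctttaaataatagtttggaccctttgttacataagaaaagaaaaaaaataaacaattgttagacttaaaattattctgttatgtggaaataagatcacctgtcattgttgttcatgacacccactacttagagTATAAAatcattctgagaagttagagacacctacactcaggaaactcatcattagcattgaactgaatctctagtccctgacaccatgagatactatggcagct
TATAAA began 28 bases before the start of KRTAP19-1 and 54 bases before that of KRTAP19-6. It lay within 60 bases before the start, on the gene's strand, in 18 of the 30 cluster promoters in the RefSeq table (60%) and in 3.17% of 27305 promoters of all genes. In a global alignment the 2 windows were identical at 47.2% of positions, within the 44.5% to 67.4% found between either of them and the other cluster promoters. Their longest shared run was the 10 bases acactcagga, and KRTAP19-1 was closer to KRTAP19-3 (67.4%) and KRTAP19-5 (64.4%) than to KRTAP19-6. Neither window held TGANTCA, the AP-1 motif, TGACGTCA, the cyclic AMP response element, or the kappaB consensus on either strand, motifs present in 7.76%, 1.98% and 10.8% of all promoters. A match or its absence describes these letters in this window only.

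Before the results, the arrays themselves. Mean probe intensity per array lay between 399.2 and 629.5, and between 20719 and 23405 probes were detected. Control replicate 5 at 72 h was the brightest and had the most detected probes of its group, and values without it are given where it is the extreme. The HEK293 markers VIM, NEFM, NEFL, KRT8 and KRT18 were detected on all 24 arrays, whereas PAX2, a kidney developmental factor, was detected on 8.

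KRTAP19-1 was bright in 72 h controls and several times dimmer in the other groups. Its deposited intensity in 72 h controls had a lowest value of 762, a median of 839 and a highest of 1042. In 72 h cells given MOTS-c the corresponding values were 114, 133 and 154.5. In 4 h controls they were 123, 140.3 and 165, and in 4 h treated cells 126, 157 and 194. All 6 arrays of 72 h controls were thus far above all 18 others, and those 18 overlapped between their groups. The same order of arrays was found for 0.659% of all 47323 probes in deposited intensity and for 3.59% on the normalized scale; the choice of the genes fixes this pattern and nothing is read from it. The probe was detected on all 24 arrays, with a highest detection p of 0.00519. Its median rank among the probes of an array was percentile 90.5 in 72 h controls, and percentiles 67.5 to 69.5 in the other groups.

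KRTAP19-6 had the same pattern at lower intensity. Its deposited intensity ran from 518 to 638 in 72 h controls, with a median of 576, and from 102.5 to 124 in 72 h treated cells, with a median of 115. In 4 h controls it ran from 112 to 125 with a median of 118, and in 4 h treated cells from 112 to 132 with a median of 122. Again the 72 h controls stood above all other arrays, and the other groups overlapped. The probe was detected on all 24 arrays, with a highest detection p of 0.0182.

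**Figure D1:**
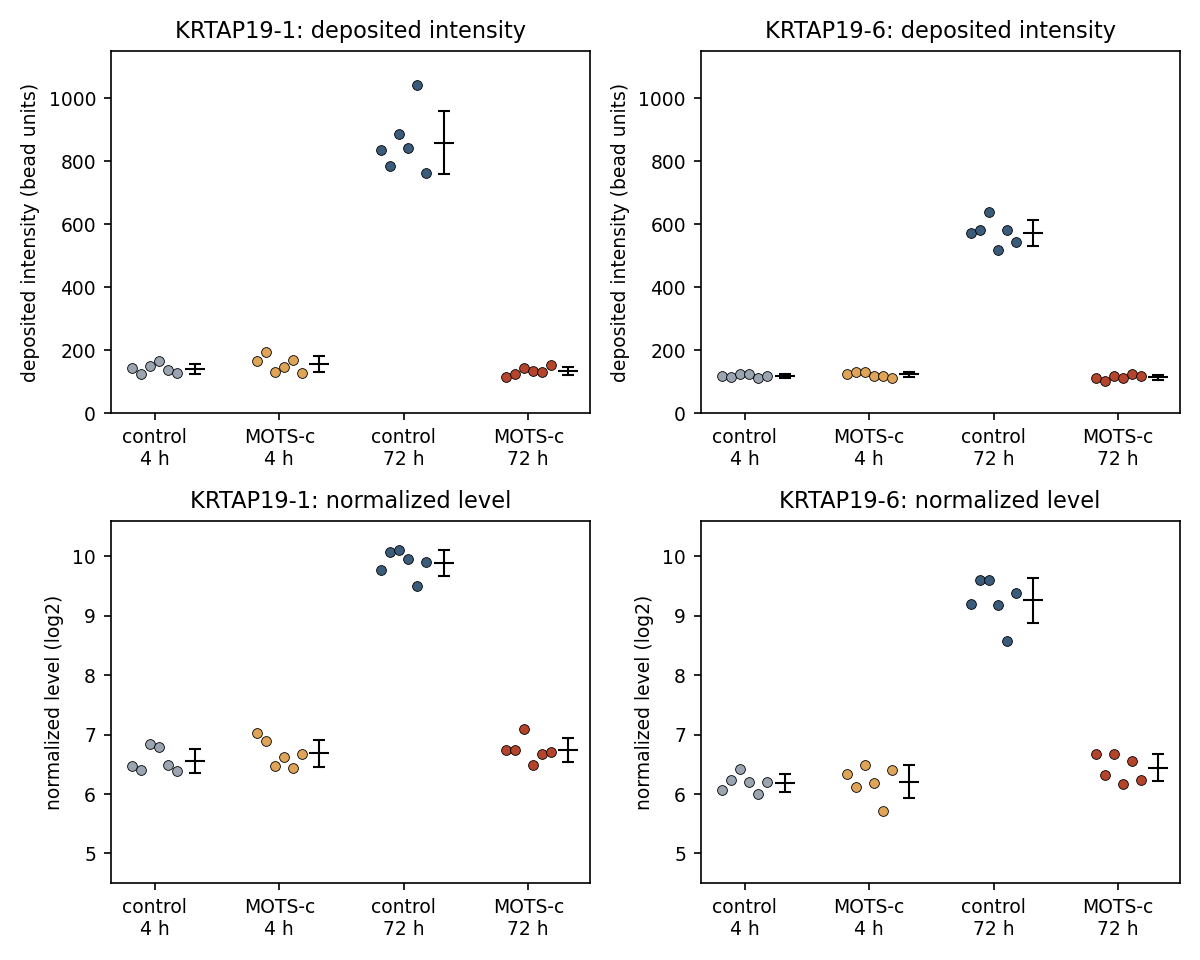
Deposited intensity (upper panels, linear axis from 0) and normalized log2 level (lower panels) of KRTAP19-1 and KRTAP19-6 on each of 24 arrays, with the mean and SD of each group of 6 beside the points. The 72 h controls sit apart, between 762 and 1042 for KRTAP19-1 and between 518 and 638 for KRTAP19-6.

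On the normalized scale KRTAP19-1 in control cells averaged 6.56 ± 0.20 (log2, SD, n = 6) at 4 h and 9.89 ± 0.22 at 72 h, and in treated cells 6.68 ± 0.23 and 6.74 ± 0.20. KRTAP19-6 in control cells averaged 6.19 ± 0.15 at 4 h and 9.26 ± 0.38 at 72 h, and in treated cells 6.21 ± 0.28 and 6.44 ± 0.23. Ordered by level, the 72 h controls came first for both genes, followed by 72 h treated cells, 4 h treated cells and 4 h controls, and the ranges of the last 3 overlapped.

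The comparison at 72 h asks what differs after prolonged exposure. KRTAP19-1 was lower in treated cells by a log2 difference of -3.15 (SE 0.11, n = 6), an 8.85-fold difference, and KRTAP19-6 by -2.82 (SE 0.14), a 7.06-fold difference. Of 13283 genes fitted together with limma, these were the lowest and the 3rd lowest values. In that comparison 45.1% of genes were called, meaning an adjusted p (Benjamini-Hochberg) under 0.05, with 22.9% called lower and 22.1% higher, and 0.0678% were called and lower by at least 2 on the log2 scale; the genes were chosen from this comparison, so nothing is read from their place in it. In the deposited intensities the ratio of medians, 72 h control over 72 h treated, was 6.33 for KRTAP19-1 and 5.01 for KRTAP19-6. Without control replicate 5 at 72 h the log2 differences were -3.22 and -2.95. That replicate had the lowest normalized level of its group for both genes, 9.50 and 8.58, although its deposited KRTAP19-1 intensity of 1042 was the highest. In bulk RNA, fewer expressing cells and less RNA per cell cannot be told apart.

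At 4 h the groups overlapped for both genes. The difference between treated and control cells was 0.12 on the log2 scale for KRTAP19-1 (SE 0.11, 95% interval -0.115 to 0.355) and 0.02 for KRTAP19-6 (SE 0.14, 95% interval -0.271 to 0.312). The 72 h differences lay outside both intervals. Those differences were chosen for their size, so this describes the values and is not a test. The 72 h effect minus the 4 h effect was -3.27 (SE 0.16) for KRTAP19-1 and -2.84 (SE 0.20) for KRTAP19-6, the lowest and 2nd lowest of 13283 genes, in a comparison where 34% of genes were called and 17.4% were called lower.

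Over time the level was higher at 72 h in controls, while in treated cells the groups overlapped. In controls KRTAP19-1 was higher at 72 h by 3.32 (log2, SE 0.11), a 10.01-fold difference, and KRTAP19-6 by 3.07 (SE 0.14), an 8.40-fold difference, the 5th and 7th highest of 13283 genes; 62.6% of genes were called in this comparison and 31.9% were called higher. In treated cells the corresponding differences were 0.06 (SE 0.11, 95% interval -0.178 to 0.292) and 0.23 (SE 0.14, 95% interval -0.06 to 0.523), while 38.1% of all genes were called, 19.9% higher and 18.2% lower. The comparison over time in controls and the comparison of treatments at 72 h share the same 6 arrays of 72 h controls, so their near equal sizes are not separate measurements.

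KRTAP19-1 and KRTAP19-6 differed in size of change by a small part of either change. The change of KRTAP19-1 minus that of KRTAP19-6 was -0.33 (SE 0.12, from 24 per-array differences) in treated against control cells at 72 h, 0.25 (SE 0.12) over time in controls and -0.17 (SE 0.12) over time in treated cells. Within groups their deviations went together, with a Pearson r of 0.63 over 24 arrays on the normalized scale and 0.454 on log2 deposited intensity. Both genes share each array's RNA and scaling, and this is given as a description.

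Whether the rest of the chromosome 21 cluster had the same pattern was examined in the other KRTAP genes there. Of 31 such genes, 29 had a probe and 20 of those were undetected on all 24 arrays, which includes KRTAP19-3, a gene with a start region close to that of KRTAP19-1. KRTAP20-2 and KRTAP21-2, of neighbouring small families, were both lower in treated than in control cells at 72 h. Each passed the filter of detection on at least 6 of 24 arrays. They passed it mainly or wholly through the 72 h controls, so a difference was built into their passing. KRTAP20-2 was detected on 6 of 6 arrays of 72 h controls and on 0 of the 18 others; 0.169% of all probes were detected on at least 5 of those 6 arrays and on no other. KRTAP21-2 was detected on 6 of 6 arrays of 72 h controls, on 3 arrays at 4 h and on 0 of 6 arrays of 72 h treated cells.

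Deposited KRTAP20-2 intensity ran from 83.3 to 102.5 in 72 h controls, with a median of 92, and from 39.3 to 51.8 in 72 h treated cells, with a median of 43.6. That of KRTAP21-2 ran from 100 to 121 with a median of 112 in 72 h controls, and from 56.4 to 66.5 with a median of 61.5 in 72 h treated cells. At 72 h the groups did not overlap for either gene, on a scale where the dim group is background. As treated cells were below detection, KRTAP20-2 was at least 1.55-fold lower there (limma adjusted p = 5.09e-12) and KRTAP21-2 at least 2.03-fold lower (limma adjusted p = 6.60e-10). Both p-values come from the fit of all 20046 genes with no detection filter, since the filter favoured a difference. The bounds compare the mean of the controls with, on each treated array, the higher of the probe's own level and the lowest level detected.

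KRTAP19-4 and KRTAP19-5, which lie between the members on the chromosome and were singled out after their values were seen, missed the filter. KRTAP19-4 was detected on 5 of 6 arrays of 72 h controls and on 0 of 18 others, with a deposited median at 72 h of 83.2 without MOTS-c and 43.3 with it. It was at least 1.37-fold lower in treated cells (limma adjusted p = 5.99e-08 with all 20046 genes tested and no filter). KRTAP19-5 was detected on 2 of 6 arrays of 72 h controls and on 0 of 18 others. Its deposited medians at 72 h were 68.8 without MOTS-c and 47.9 with it (limma adjusted p = 3.58e-04 without a filter), too close to background for a fold. On the normalized scale, 72 h controls lay above all 18 other arrays for each of KRTAP19-4, KRTAP19-5, KRTAP20-2 and KRTAP21-2.

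**Figure D2:**
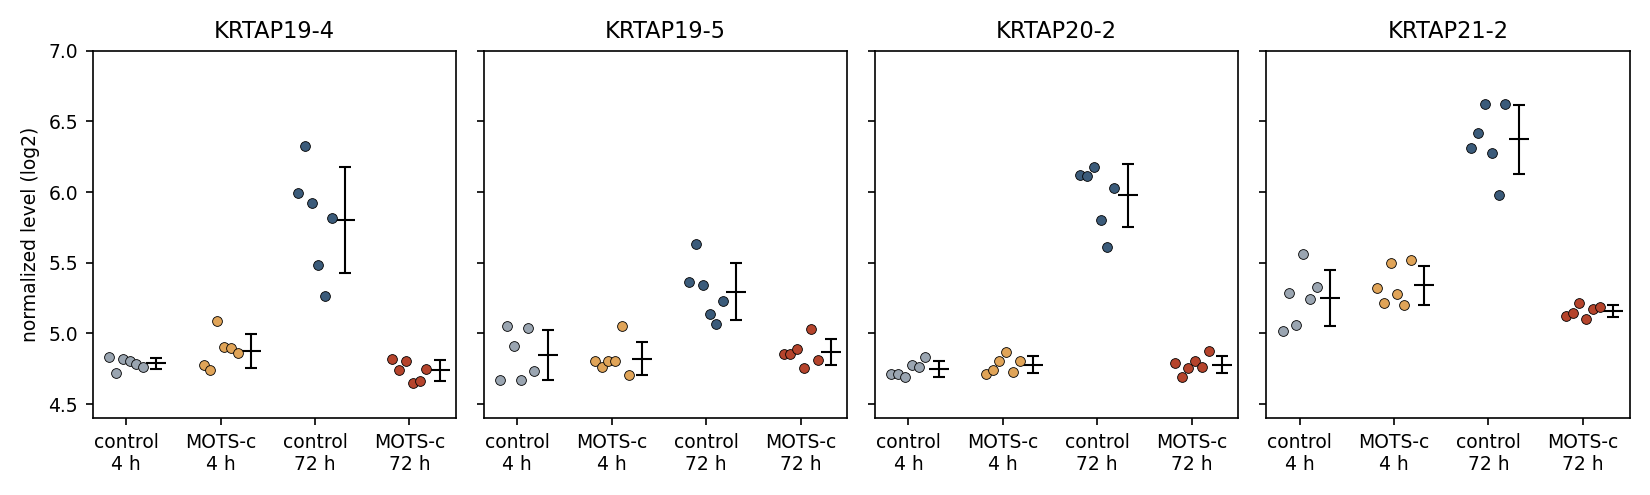
Normalized log2 level of KRTAP19-4, KRTAP19-5, KRTAP20-2 and KRTAP21-2 on each of 24 arrays, with the mean and SD of each group of 6. The 72 h controls are above the other groups in each panel, and KRTAP19-4 in 72 h treated cells averages 4.74 against 5.80 in 72 h controls.

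Counted without a filter, 4 of the 29 cluster genes with a probe were called lower at 72 h and 0 higher. That is 13.8% called lower, against 16.1% of all 20046 genes (30.4% called and 14.3% called higher). The 2 shares mix detection differently, as 2 of the 29 and 13283 of the 20046 passed the filter, so nothing is read from them. On the normalized scale, 4 of 29 genes, KRTAP19-5 among them, had all 6 arrays of 72 h controls above all 18 others. This was again 13.8%, against 5.95% of all genes. The 25 other genes had log2 differences between -0.131 and 0.117. None of them passed the filter and 20 were undetected on all 24 arrays, so values near 0 do not show an unchanged level. Of the 5 other KRTAP19 genes with a probe, KRTAP19-2, KRTAP19-3 and KRTAP19-7 were among these 25, and KRTAP19-4 and KRTAP19-5 were called lower. Which transcripts the probes of the cluster bind was not tested.

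**Figure D3:**
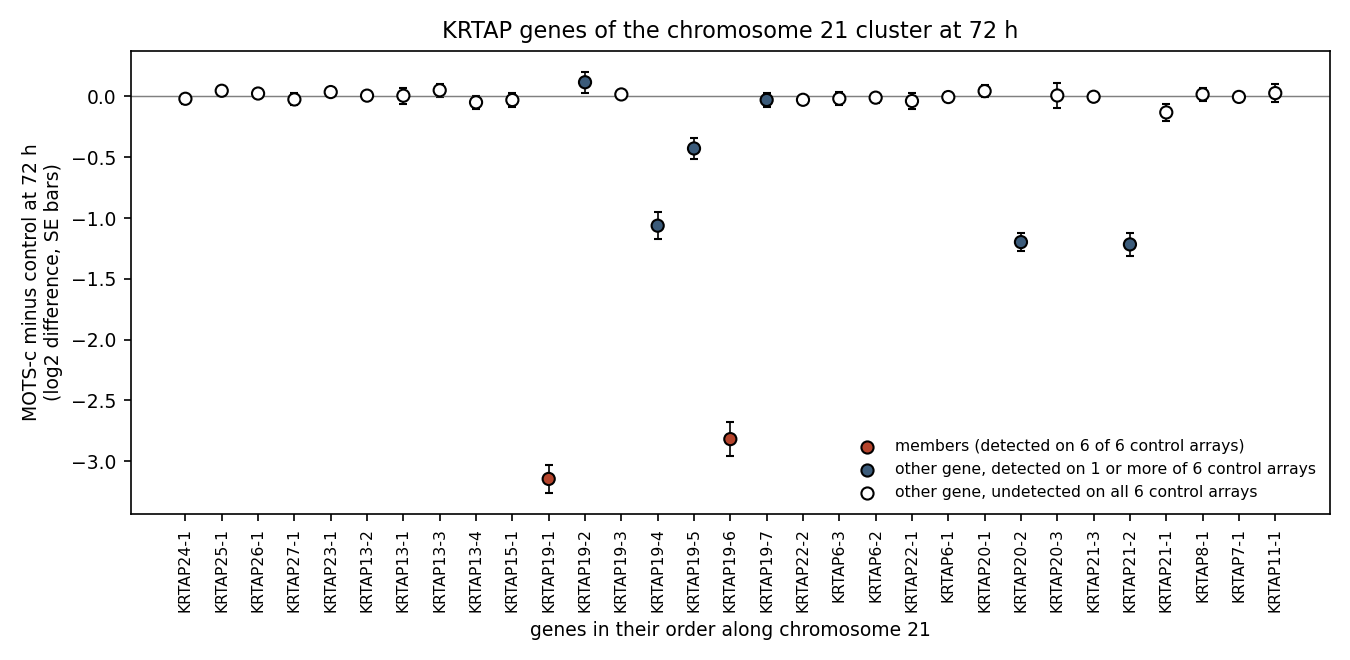
Log2 difference between treated and control cells at 72 h, with SE bars, for KRTAP19-1, KRTAP19-6 and the 29 other genes of the chromosome 21 cluster with a probe, in chromosomal order. Filled points are genes detected on at least 1 array of 72 h controls. KRTAP19-1 at -3.15 and KRTAP19-6 at -2.82 lie lowest. Between them lie KRTAP19-2 and KRTAP19-3 near 0, both at or near background, KRTAP19-4 at -1.06 and KRTAP19-5 at -0.43.

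KRTAP genes outside the cluster were not called. Of 49 with a probe, 7 were detected on at least 1 array, and the others could hardly show a difference. Without a filter, 0 of the 49 were called by limma at 72 h (2 at an unadjusted p under 0.05), against 30.4% of all genes. All 72 h controls lay above the other arrays for 0 of them, against 5.95% of all genes. Of the 4 that passed the filter, 0 were called by limma and 0 had an unadjusted p under 0.05, at a median of 0.025. Among all genes that passed it, 45.1% were called. KRTAP10-11, detected on all 24 arrays, differed by -0.05 (SE 0.08, limma adjusted p = 0.627) and KRTAP4-8 by 0.10 (SE 0.12). KRTAP10-2 differed by -0.05 (SE 0.13) and KRTAP10-5 by 0.105 (SE 0.09), and both were detected on 7 of 24 arrays.

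The genes on each side of the cluster were examined for a difference over a wider stretch of chromosome 21. Here and below, fell and rose mean called lower or higher in treated than in control cells at 72 h, not a change over time. On the CLDN8 side 9 of 10 genes had a probe and 5 passed the filter. Of these, LTN1, a ribosome quality control ligase, rose by 0.40 (log2, SE 0.08, limma adjusted p = 1.09e-04) and RWDD2B fell by 0.52 (SE 0.09). The nearest of them to the cluster, MAP3K7CL, was at -0.30 (SE 0.15, limma adjusted p = 0.119). On the TIAM1 side 8 of 10 passed. SOD1, the cytosolic superoxide dismutase, rose by 0.38 (SE 0.06) and EVA1C by 0.29 (SE 0.10), while SCAF4 fell by 0.41 (SE 0.09). TIAM1 itself, next to the cluster, was at 0.08 (SE 0.07, limma adjusted p = 0.384). The medians were 0.102 and 0.122 on the sides, against 0.006 for all genes. Of the 5 genes on the CLDN8 side 1 rose and 1 fell, and of the 8 on the TIAM1 side 2 rose and 1 fell. Among all genes 22.1% were called higher and 22.9% lower, so nothing regional is read from these counts.

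Partners of these proteins in the hair shaft were mostly undetected. Of 24 hair keratin and hair shaft genes, 21 had a probe and 14 of those were undetected on all 24 arrays, including KRT31, KRT33A, KRT35 and KRT85. Of the 4 tested, 2 fell and 0 rose: S100A3, a calcium-binding protein of the hair cuticle, by 0.39 (log2, SE 0.07, limma adjusted p = 8.38e-05) and TGM3, a transglutaminase, by 0.49 (SE 0.11, limma adjusted p = 4.99e-04). The median of the 4 was -0.287, against 0.006 for all genes, of which 22.9% were called lower and 22.1% higher. CRYM, another of the 4, had 2 kept probes at -0.08 and -0.63, and the probe at -0.08 stands for it in the count and the median. The summed level of the list, in normalized intensity above the offset, at 72 h ran from 487.2 to 513.2 in controls and from 401.3 to 478.1 with MOTS-c.

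Transcription factors of the hair follicle were all measured, and 3 of 11 rose while 5 fell, at a median of -0.01. Of all genes, 22.1% were called higher and 22.9% lower. GATA3, a regulator of the inner root sheath, fell by 0.66 (log2, SE 0.10, limma adjusted p = 4.04e-06), the vitamin D receptor VDR by 0.48 (SE 0.08) and MSX2 by 0.46 (SE 0.09), whereas SOX9, a factor of follicle stem cells, rose by 0.43 (SE 0.09). VDR was detected on all 6 control arrays and 3 treated arrays at 72 h, and on 0 of 12 arrays at 4 h. HOXC13, which drives hair keratin genes, fell by 0.17 (SE 0.06, limma adjusted p = 0.0184). Among epithelial keratins 0 of 7 tested genes were called by limma (2 at an unadjusted p under 0.05), at a median of 0.036, and KRT8 and KRT18, the pair found in simple epithelia, were at 0.21 (SE 0.10) and 0.15 (SE 0.09).

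Keratinocyte markers were examined as markers of another cell type. Of 12 markers 11 had a probe, and 6 of those were detected on at least 1 array. The others with a probe, KRT5, KRT14, KRT1, LORICRIN and DSG3, were undetected on all 24 arrays. Of the 5 tested markers, 3 fell and 0 rose, at a median of -0.365, where 22.9% of all genes were called lower and 22.1% higher. KRTDAP fell by 0.42 (log2, SE 0.08, limma adjusted p = 5.73e-05). The desmosomal protein DSP fell by 0.38 (SE 0.09, but -0.06 at its other probe) and the stratifin SFN by 0.36 (SE 0.11). The summed level of the list ran from 4608 to 5260 in 72 h controls, from 3896 to 4287 in 72 h treated cells, and from 3416 to 4400 over the 12 arrays at 4 h. Of the 6 HEK293 markers 2 fell and 1 rose, at a median of 0.151, beside the same shares of all genes. NEFM, a neurofilament gene, fell by 1.015 (SE 0.06) and NEFL by 0.32 (SE 0.09), while the intermediate filament gene VIM rose by 0.21 (SE 0.06).

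**Figure D4:**
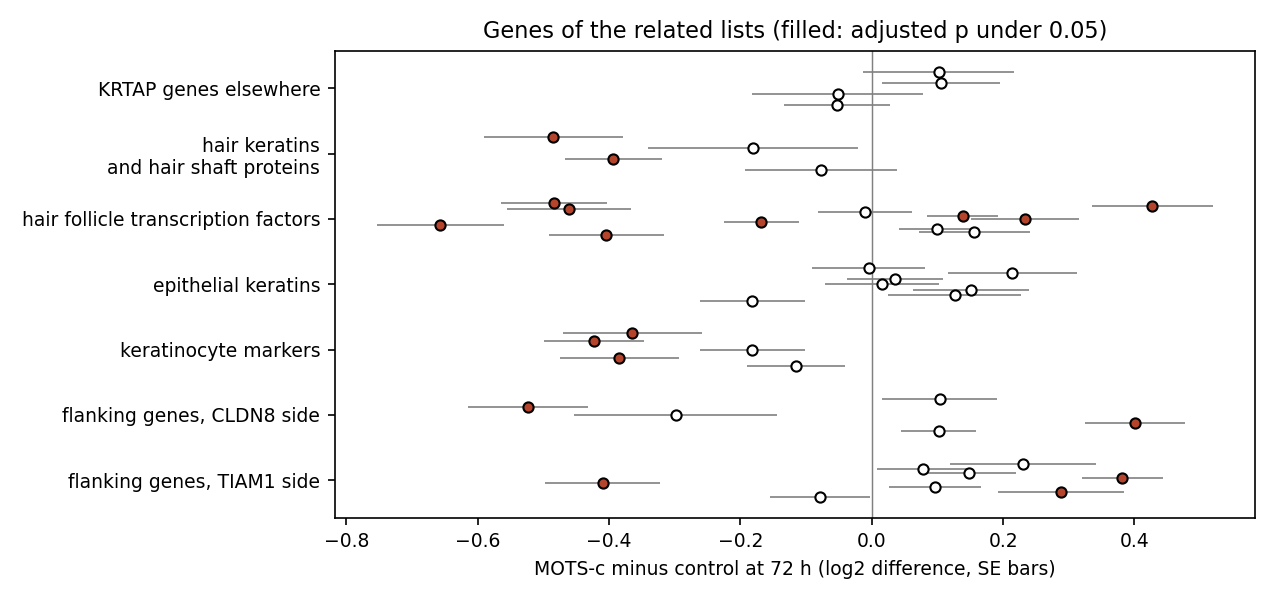
Log2 difference between treated and control cells at 72 h, with SE bars, for each tested gene of the related lists other than the cluster and the HEK293 markers, filled where the limma adjusted p is under 0.05. The values run from -0.66 for GATA3 to 0.43 for SOX9.

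At 4 h, 0 of the 49 tested genes of these lists were called by limma (4 at an unadjusted p under 0.05), in a comparison where 0.00753% of all genes were. At 72 h, 16 of the 49 fell (32.7%) and 7 rose (14.3%), against 22.9% and 22.1% of all genes. The genes that fell included KRTAP20-2 and KRTAP21-2. They passed the filter mainly or wholly through the 72 h controls, so a difference was built into this count. No excess of falls over all genes is read from it. Under median scaling the split was 12 lower and 10 higher, and over all genes 1737 lower and 2952 higher instead of 3048 and 2936.

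The genes with profiles nearest to the members were found by the root mean square difference of centred log2 levels over the 24 arrays. KRTAP19-1 and KRTAP19-6 were each other's nearest gene, with a difference of 0.23, where the median gene was 1.42 from KRTAP19-1 and 1.33 from KRTAP19-6. Both were chosen for changes that enter this measure, so nothing is read from their nearness. Next for KRTAP19-1 came CXCL2, a neutrophil-attracting chemokine, at 0.35, the cytokine TNF at 0.45, the cytochrome P450 gene CYP2F1 at 0.47 and DENND1A, an endocytic regulator, at 0.53. For KRTAP19-6 they were CXCL2 at 0.36, TNF at 0.37, CYP2F1 at 0.38 and the chemokine CXCL10 at 0.47. CXCL2, TNF and CYP2F1 were undetected on all 12 arrays at 4 h and detected on 6 of 6 in 72 h controls. After 72 h with MOTS-c, CXCL2 was detected on 5 arrays, TNF on 1 and CYP2F1 on 0. These 3 genes passed the detection filter through 72 h arrays only, so a rise by 72 h was built into their passing. DENND1A was detected on all 24 arrays, and its 3 kept probes ran from -2.50 to 0.20 at 72 h. CXCL2, TNF, CYP2F1, DENND1A and CXCL10 lie on other chromosomes.

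**Figure D5:**
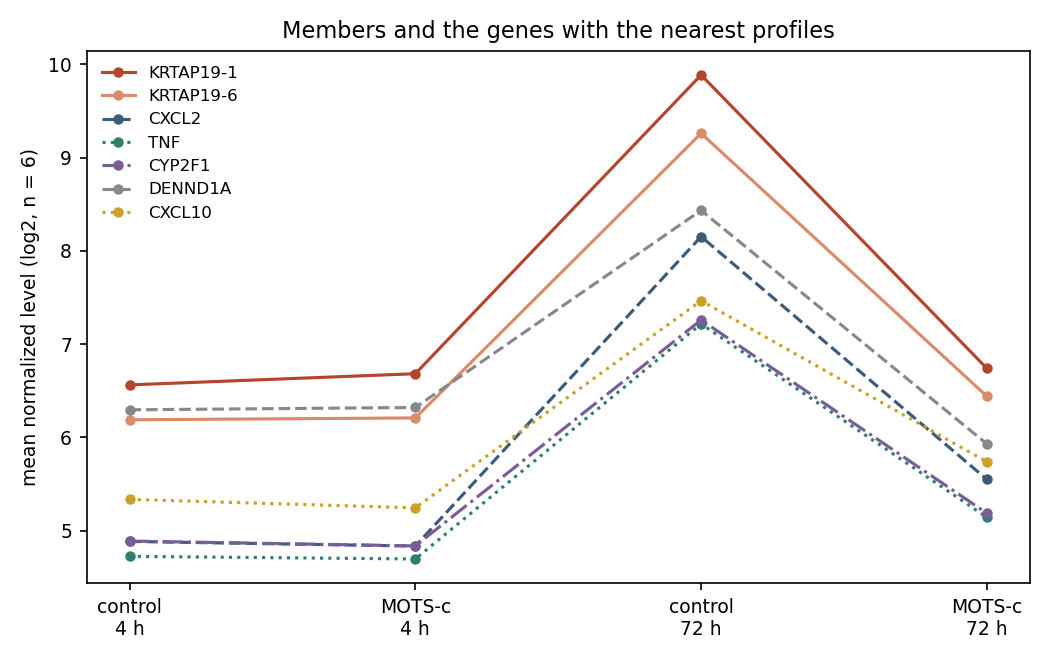
Mean normalized log2 level (n = 6) of KRTAP19-1, KRTAP19-6 and the genes nearest to them in profile, in the 4 groups. Each line peaks in 72 h controls, at 9.89 for KRTAP19-1, 9.26 for KRTAP19-6 and 8.15 for CXCL2.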

How the data were processed

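RNA of 24 HEK293 samples was measured on Illumina bead arrays, 1 array per sample, and groups were taken from the labels. Per the submitters' processing notes, arrays were read with GenomeStudio 2011.1. The deposited table holds an intensity per probe and array that the authors deposited as non-normalized, and the authors deposited a detection p-value beside each. A further deposited table holds a score, recomputed as the Z score of log10 intensity within each array (largest difference 5e-10). The genome build behind the probes is not given in the sources used here.

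Intensities were processed with limma 3.58.1 in R 4.3.3. The neqc function estimated background from the detection p-values, normalized by quantiles with an offset of 16 and gave log2 levels. Of 47323 probes, 30113 had 1 gene in the probe annotation, 8 had several and 17202 had none. Probes detected on at least 6 of 24 arrays were kept (23931, of which 17873 had 1 gene), and the probe with the highest mean stood for each of 13283 genes. Fitting 1 mean for each group left 20 residual and 6.43 prior degrees of freedom. Tests were two-sided with Benjamini-Hochberg adjustment, and every p-value named limma adjusted comes from this model. Precision is limited by the number of arrays.

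The genes and lists were chosen with earlier results of these data known. Named genes are the members, every other KRTAP gene with a kept probe, the 4 called genes of each list with the smallest p, the nearest measured flanking genes and the 5 nearest profiles. HOXC13 and genes described as undetected or not called were named in addition, as were KRTAP19-4 and KRTAP19-5. Chip positions and scan dates are not given in the sources used here. Promoters came from RefSeq, for 30 of the 33 cluster genes. Alignments used Biopython 1.88, and figures matplotlib 3.10.9 with Python 3.11.15.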

Additional observations from a re-analysis of the deposited data

Results flagged for a closer look

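KRTAP4-8 on control replicate 3 at 72 h, at a log2 level of 5.23, lay far below the nearest of its group. KRTAP10-5 on treated replicate 2 at 72 h, at 5.64, lay far above the nearest of its group, near the limit of detection. These were 2 of 32 groups of arrays examined for single extreme values, where chance gives about 5%, and KRTAP19-1 and KRTAP19-6 had none. For KRTAP20-2 the effect at 72 h minus that at 4 h was -1.23 on the log2 scale, and for KRTAP21-2 it was -1.31 (interaction term in limma). KRTAP20-2 was undetected on all 12 arrays at 4 h and all 6 treated arrays at 72 h. KRTAP21-2 was detected on 3 of 12 arrays at 4 h and on 0 of 6 treated arrays at 72 h. Both values set background against signal and are not measured sizes.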

How the results depend on the processing

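For KRTAP19-1 and KRTAP19-6 the differences at 72 h, over time in controls and between the 72 h and 4 h effects kept their direction under every setting run for them, and their size depended on background handling. The small differences did not all keep it when single arrays were left out: KRTAP19-6 at 4 h ran from -0.035 to 0.118, and KRTAP19-1 over time in treated cells from -0.012, without treated replicate 3 at 72 h, to 0.125. At 72 h the log2 differences of KRTAP19-1 and KRTAP19-6 were -2.75 and -2.36 with no background correction, -2.80 and -2.42 with an offset of 50, and -2.63 and -2.28 as log2 intensity over the array median. Over time in controls they were 2.87 and 2.53, 2.93 and 2.60, and 2.81 and 2.475 under the same settings. These settings leave or add a constant under both groups, which shrinks a ratio by construction. The deposited scores, in SDs of an array's log10 intensities and so another unit, gave -1.48 and -1.28 at 72 h and 1.55 and 1.365 over time in controls. Under the same 4 settings the 72 h effect minus the 4 h effect was also smaller in size than with the main processing. Leaving out each array in turn gave -3.22 to -3.095 and -2.95 to -2.75 at 72 h, and 3.28 to 3.40 and 3.001 to 3.21 over time in controls.

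Other cluster genes called lower at 72 h numbered 2 of 2 tested, where 22.9% of all genes were called lower. With no detection filter they numbered 4 of 29, against 16.1% of all genes. Where detection p under 0.01 was required they numbered 1 of 1, beside 2897 of all 11399 genes. Leaving out single arrays left 2 of 2. Genes that passed a filter did so mainly or wholly through the 72 h controls, so only the count without a filter was free to differ. Replicate numbers pair nothing known: same-numbered arrays had deviations correlated between -0.231 and 0.164, with 0 of 6 best matches at either time. With the replicate number as a block, the 72 h differences were the same, -3.15 and -2.82, and list genes called were 16 lower and 6 higher instead of 7. Low signal limits KRTAP19-4, KRTAP19-5, KRTAP20-2 and KRTAP21-2, whose treated arrays lie below detection.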
